A study of Homo sapiens with 4 samples.

Results

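The phagocyte NADPH oxidase is the enzyme of neutrophils and macrophages that makes superoxide, and it is described here through 7 genes, NCF1, NCF1B, NCF1C, NCF4, CYBA, CYBB and RAC2, out of 18567 genes in the expression table. They were picked by name, as oxidase subunits and as copies of the NCF1 gene, and they were picked with their values in this same contrast already known. Their levels are therefore given as a description, with no test. RNA sequencing had been done on cells labelled as Kasumi-1, an established human acute myeloid leukemia (AML) line known to carry the RUNX1-RUNX1T1 fusion. There were 2 samples labelled NC, which the labels call untreated with no shRNA, and 2 samples labelled sh-ANP32B, in which ANP32B, a histone chaperone, was knocked down. According to the study's methods the hairpin was delivered by lentivirus, the cells were selected with puromycin, and the control cells carried a control hairpin, which the labels of the NC samples do not mention. If the NC cells had no hairpin, infection and selection cannot be told apart from the knockdown. Which of the study's hairpins was sequenced is not stated. The labels do not say that these replicates came from separate cultures, and the study's methods state only in general that experiments were repeated independently, so spreads and p-values below measure only the difference between these samples, which may be technical.

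In resting phagocytes the oxidase is kept in separate pieces. CYBB (gp91phox, also called NOX2) and CYBA (p22phox) form the membrane cytochrome that carries electrons from NADPH to oxygen, while NCF1 (p47phox) and NCF4 (p40phox) wait in the cytosol with other factors and move to the membrane with the GTPase RAC2 once the cell is stimulated. Inherited loss of a subunit causes chronic granulomatous disease, and the genes are switched on as myeloid cells mature.

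ANP32B itself was at 383.8 and 392.0 TPM in NC and at 51.8 and 41.2 TPM in sh-ANP32B, so that it fell by 3.04 on the log2(TPM + 1) scale (SE 0.150, limma adjusted p = 0.00516). TPM gives a share of each sample's transcripts after division by transcript length, so levels of different genes can be set side by side. The sequencing depth is unknown and no counting interval can be given. With bulk RNA, fewer cells expressing a gene and less RNA per cell cannot be told apart. Of 6 genes listed for the labelled line, CD33 (58.5 to 70.1 TPM), PTPRC (113 to 203 TPM) and RUNX1T1 (15.6 to 31.2 TPM) were present in all 4 samples. KIT, also listed, was low at 1.55 to 3.41 TPM, and CD34 and MPO were not analysed here. These 4 of the 6 listed genes summed to 192.7 to 200.6 TPM in NC and 246 to 307 TPM in sh-ANP32B. Of 10 markers of other cell types 1 was analysed here, PECAM1, which was at 34.8 and 37.8 TPM in NC and at 58.7 and 45.4 TPM in sh-ANP32B. The part of other cells in the oxidase values was not tested. HOXA9, a transcription factor, was at 156.1 and 150.2 TPM in NC and at 169.3 and 194.5 TPM in sh-ANP32B. HOXA10, another, was at 113.8 and 116.3 TPM in NC and at 97.1 and 115.8 TPM in sh-ANP32B. Whether these values and the low KIT are those of the labelled line was not tested.

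The mean of every oxidase gene was higher in sh-ANP32B than in NC. The values for NCF1 and its copies were 3.62- to 4.01-fold higher, that of NCF4 was 2.07-fold higher, and those of CYBA, CYBB and RAC2 were 1.33- to 1.53-fold higher. For all 7 genes both sh-ANP32B samples lay above both NC samples, an arrangement found in 33.2% of the 16817 genes that had at least 1 TPM in at least 2 samples. Since the genes were chosen from this contrast, nothing is read from this count. The median difference of mean log2(TPM + 1) was 1.02 for the 7 genes and 0.08 for all genes tested. The first median counts NCF1 and its copies separately although they can share reads, and for the same reason nothing is read from it.

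**Figure D1:**
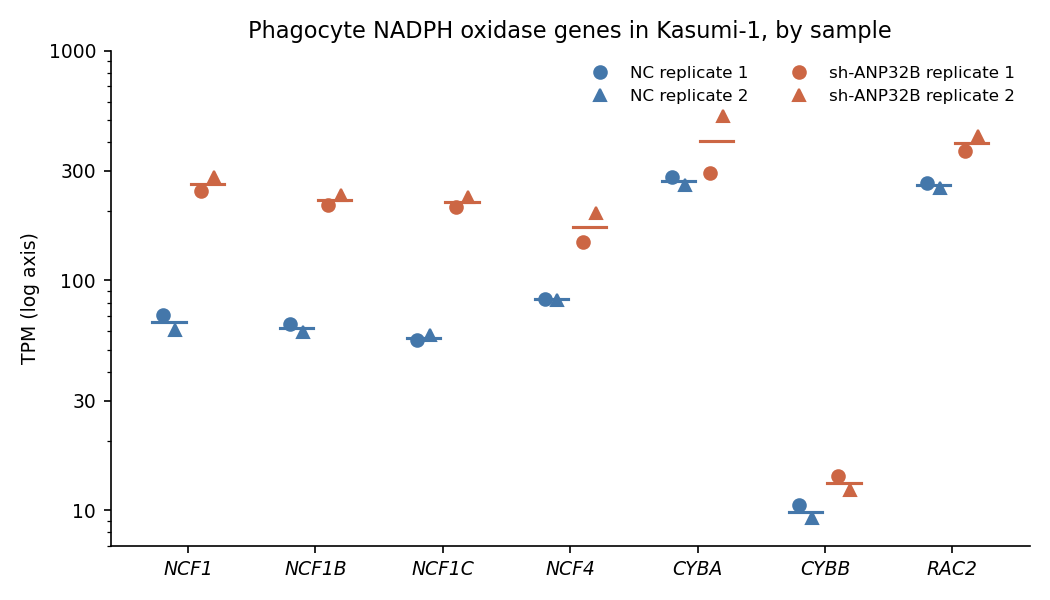
TPM (log axis) of the 7 oxidase genes in each of the 4 samples. Circles are replicate 1, triangles replicate 2, blue NC, orange sh-ANP32B, and short lines mark group means. NCF1, NCF1B and NCF1C are close to 60 TPM in NC and above 200 TPM in sh-ANP32B, while the CYBA samples of sh-ANP32B lie far apart.

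NCF1 encodes p47phox, the organizer whose phosphorylation releases it to bind p22phox at the membrane. The gene (ENSG00000158517) occupies bases 74774011 to 74789315 of chromosome 7 (plus strand, GRCh38, which is hg38). It has a pair of near-identical copies in the duplicated blocks on either side, both annotated as pseudogenes. NCF1B (ENSG00000182487) spans 73220646 to 73235787 (plus strand), 1538 kb before NCF1, and NCF1C (ENSG00000165178) spans 75156639 to 75172044 (minus strand), 367 kb beyond it. In both copies the repeat of GT at the start of exon 2 is shortened, which is known to shift the reading frame. The reference sequence at this place is shown because it is the mark by which the copies are known apart. Each run reads 5′ to 3′ along the gene, holds 20 bases of intron 1 and then the start of exon 2, and has the GT repeats in capitals, 2 in NCF1 and 1 in each copy.
NCF1, chr7:74777247-74777306, plus strand: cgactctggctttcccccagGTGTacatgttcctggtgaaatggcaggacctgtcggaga
NCF1B, chr7:73223858-73223917, plus strand: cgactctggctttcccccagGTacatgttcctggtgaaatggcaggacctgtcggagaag
NCF1C, chr7:75168671-75168730, minus strand: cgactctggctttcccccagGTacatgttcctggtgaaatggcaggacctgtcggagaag

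Past the GT repeats the printed bases of the copies are those of NCF1 itself. Over the annotated transcripts, NCF1C differed from the 1349-base NCF1 transcript at 8 of 1347 aligned bases (99.4% identity) and NCF1B at 12 of 1167 (99.0% identity). Of the 1250 windows of 100 bases in the NCF1 transcript, 14.4% occurred letter for letter in the genomic span of NCF1B or NCF1C. In the annotated transcripts of the copies, where windows across exon junctions can match too, the share was 49.3%, with 41.6% in NCF1C and 15.8% in NCF1B. The share fell as windows grew longer, from 78.6% at 50 bases to 32.7% at 150 bases in the transcripts. A read no longer than such a window could not be assigned to one gene by its letters. The read length, and how the counting treated reads with several matches, are not given in the sources used here, so the values of the separate copies are uncertain.

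**Figure D2:**
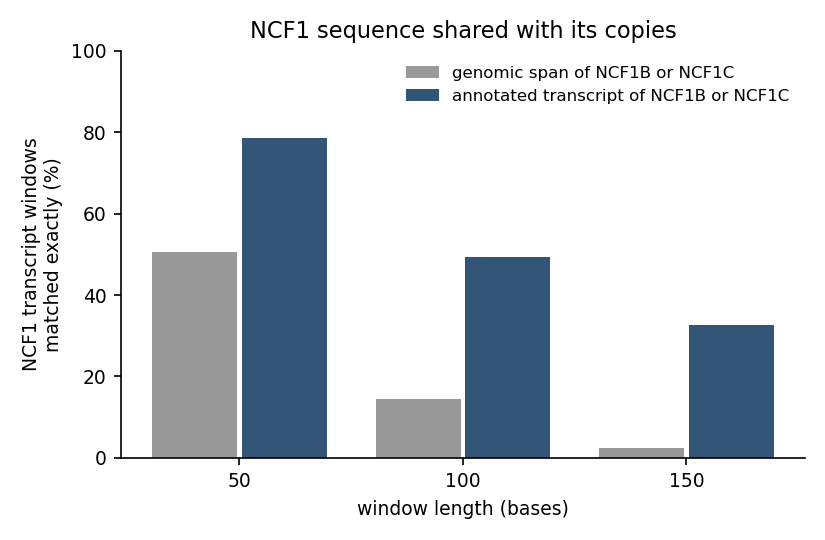
Share (%) of windows of the NCF1 transcript, by window length in bases, found letter for letter in the genomic span (grey) or in the annotated transcript (blue) of NCF1B or NCF1C. At 100 bases the share is 14.4% in the genomic spans and 49.3% in the transcripts.

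NCF1 was at 70.7 and 60.6 TPM in NC and at 245.9 and 281 TPM in sh-ANP32B. The means were 65.7 ± 7.13 TPM (SD, n = 2) and 263 ± 24.9 TPM (SD, n = 2), a ratio of 4.01 and a difference of 1.99 on the log2(TPM + 1) scale. Both sh-ANP32B samples were far above both NC samples. The NCF1 difference ranked 24th of 16817 genes from the top.

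NCF1B was at 64.4 and 59.6 TPM in NC and at 212.6 and 236 TPM in sh-ANP32B, a ratio of 3.62 and a log2 difference of 1.84. NCF1C was at 54.9 and 57.6 TPM in NC and at 209.6 and 230.1 TPM in sh-ANP32B, a ratio of 3.91 and a log2 difference of 1.95. In both copies, as in NCF1, the gap between groups was much wider than the gap between replicates. The group means were 62.0 ± 3.39 and 224 ± 16.5 TPM for NCF1B and 56.3 ± 1.89 and 219.9 ± 14.6 TPM for NCF1C (SD, n = 2 each). A second gene model on the same strand, a long noncoding RNA, shares 89.7% of the NCF1B exon bases. Because the 3 genes can share reads, they are not 3 separate observations.

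The 3 values were also summed. The sum still depends on how reads were split, since TPM divides by transcript length and the annotated lengths differ. It reached 190 and 177.8 TPM in the NC samples against 668 and 747 TPM after knockdown, with means of 183.9 ± 8.63 and 707.6 ± 56.0 TPM (SD, n = 2 each), a ratio of 3.85. On the log2 scale this sum differed by 1.94, close to the differences of the separate genes. NCF1 itself received 37.2% and 34.1% of the sum in the NC samples and 36.8% and 37.6% in the sh-ANP32B samples. NCF1B received between 31.6% and 33.9%, and NCF1C between 28.9% and 32.4%. Each of the 3 thus took close to an equal share in every sample, and the shares of NCF1 and NCF1C overlapped between the groups, while that of NCF1B was slightly lower in both sh-ANP32B samples.

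**Figure D3:**
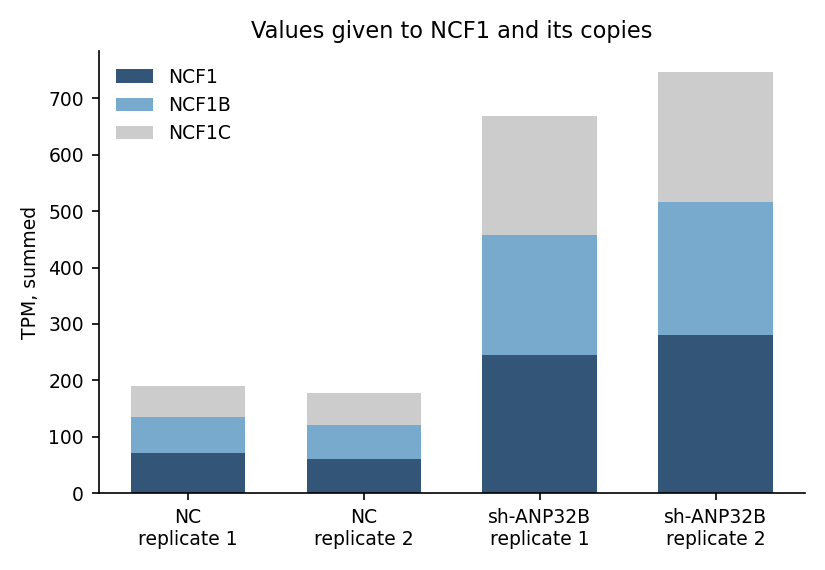
Summed TPM of NCF1 (dark blue), NCF1B (light blue) and NCF1C (grey) in each sample, stacked from 0. The total is 177.8 to 190 TPM in NC and 668 to 747 TPM in sh-ANP32B, and the split among the 3 is alike in all samples.

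NCF4 encodes p40phox, which binds phosphatidylinositol 3-phosphate on phagosomes. The gene (ENSG00000100365) occupies bases 36860988 to 36878017 of chromosome 22, plus strand. It was at 83.2 and 82.6 TPM in NC and at 146.5 and 195.8 TPM in sh-ANP32B, with means of 82.9 ± 0.421 and 171 ± 34.9 TPM (SD, n = 2 each). The NC samples were nearly equal while the sh-ANP32B samples differed 1.34-fold from each other, and the groups did not overlap. The log2 difference was 1.02, and it was 0.81 without sh-ANP32B replicate 2 and 1.23 without replicate 1. An antisense gene, NCF4-AS1, shares 27 bases (1.21%) of the NCF4 exons and was between 0.464 and 0.917 TPM in all samples.

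RAC2 encodes the Rac GTPase of blood cells, which joins the oxidase in its GTP-bound form. The gene (ENSG00000128340) occupies bases 37225270 to 37259594 of the same chromosome, minus strand, 347 kb from NCF4. It was at 265.3 and 252.7 TPM in NC and at 366.5 and 425.4 TPM in sh-ANP32B, with means of 259 ± 8.91 and 396 ± 41.7 TPM (SD, n = 2 each), a ratio of 1.53 and a log2 difference of 0.61. Both sh-ANP32B samples exceeded both NC samples. RAC2 relative to RAC1, the widely expressed Rac that can also serve the oxidase, was 0.782 and 0.704 in NC and 0.780 and 1.09 in sh-ANP32B, so that this ratio overlapped between the groups.

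CYBA encodes p22phox, which stabilizes gp91phox and docks p47phox. The gene (ENSG00000051523) occupies bases 88643275 to 88651083 of chromosome 16, minus strand. It was at 281.2 and 259.5 TPM in NC and at 292.1 and 517.9 TPM in sh-ANP32B, with means of 270.3 ± 15.4 and 405 ± 159.6 TPM (SD, n = 2 each). Replicate 1 of sh-ANP32B was barely above the NC samples and replicate 2 was 1.77-fold above replicate 1. The log2 difference of 0.52 was smaller than the 0.82 between these replicates, and it was 0.11 without sh-ANP32B replicate 2 and 0.94 without replicate 1. The direction of the CYBA difference was the same in these fits, but its size rested on 1 library.

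The sh-ANP32B replicates also differed with base composition. Among the 1543 genes richest in GC (at least 61.3%) the median log2 difference of replicate 2 from replicate 1 was 0.44, and among as many of the poorest it was -0.36. The longest CYBA transcript has 61.2% GC, against a median of 48.1%. Transcripts of NCF1, NCF1B and NCF1C have 62.2% to 64.0%, NCF4 58.5% and RAC2 57.5%, and all 5 were higher in replicate 2 than in replicate 1. CYBB, with 40.9%, was lower in replicate 2. The share of TPM on the mitochondrial genome was 12.9% to 13.1% in NC, 11.4% in sh-ANP32B replicate 1 and 8.43% in replicate 2. After a correction for GC the log2 difference was 1.75 for NCF1, 0.83 for NCF4, 0.43 for RAC2 and 0.31 for CYBA. The part of base composition in the differences was otherwise not tested.

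CYBB encodes gp91phox, the flavoprotein subunit that holds the NADPH site and the hemes. The gene (ENSG00000165168) occupies bases 37780018 to 37813461 of the X chromosome, plus strand. It was at 10.5 and 9.20 TPM in NC and at 14.0 and 12.2 TPM in sh-ANP32B, with means of 9.84 ± 0.909 and 13.1 ± 1.28 TPM (SD, n = 2 each), a ratio of 1.33 and a log2 difference of 0.38. This was the lowest level among the 7 genes and, with all samples and no GC correction, the smallest difference, although the groups did not overlap. With the GC correction CYBA had the smaller difference (0.31 against 0.38), as it did without sh-ANP32B replicate 2 (0.11 against 0.47). Its log2 difference ranked 4113th of 16817 genes.

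The order of levels put the catalytic subunit last in both groups. In NC, CYBA and RAC2 were highest and their replicates overlapped, followed by NCF4, then by NCF1 and NCF1B, whose replicates overlapped, then by NCF1C and by CYBB. In sh-ANP32B, CYBA and RAC2 were again highest and overlapping, but NCF1 came next, followed by NCF1B and NCF1C with overlapping replicates, then NCF4 and CYBB. NCF4 thus went from place 3 to place 6, below NCF1 and both copies, and NCF1 from place 4 to place 3. The ratio of NCF1 to NCF4 was 0.850 and 0.734 in NC and 1.68 and 1.44 in sh-ANP32B. The ratio of NCF1 to CYBB was 6.74 and 6.59 in NC and 17.5 and 23.0 in sh-ANP32B. Both ratios were higher in each sh-ANP32B sample than in either NC sample, and both use the NCF1 value, which depends on the split among the copies. CYBA exceeded CYBB, its partner in the cytochrome, 26.8- and 28.2-fold in NC and 20.8- and 42.4-fold in sh-ANP32B, so this ratio overlapped.

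Other proteins that work directly with the subunits are given as a list of 7 genes, all tested. None passed an adjusted p of 0.05 in limma's fit with the abundance trend, and 1 had an unadjusted p under 0.05. In this fit 3.32% of all 16817 genes passed the adjusted threshold in either direction, and 2.14% passed and were higher in sh-ANP32B. An unadjusted p under 0.05 was found in 23.8%. Without the trend 0 of all genes passed, so that setting cannot tell the list from other genes. The median log2 difference of the list was -0.17, against 0.08 over all genes.

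CYBC1 encodes the chaperone that the gp91phox and p22phox pair needs to reach the membrane. It was at 151.5 and 158.1 TPM in NC and at 190.5 and 191.8 TPM in sh-ANP32B (log2 difference 0.30, adjusted p = 0.192). RAC1 was at 339 and 359 TPM in NC and at 470 and 391 TPM in sh-ANP32B (log2 difference 0.30, adjusted p = 0.252). Neither passed the threshold. Their groups did not overlap, and in 3 of the 7 list genes both sh-ANP32B samples lay above both NC samples (33.2% of all genes). The remaining list members lay between -0.71 for RAP1A, a small GTPase found with the cytochrome, and 0.31 for HVCN1. HVCN1 is the proton channel that balances the charge moved by the oxidase. RAP1A varied widely between replicates, at 56.2 and 96.0 TPM in NC and at 62.9 and 31.4 TPM in sh-ANP32B. Its groups overlapped (adjusted p = 0.292 in limma's fit). NRROS, a negative regulator of the oxidase, had a log2 difference of -0.37 (adjusted p = 0.275). ARHGDIB had one of -0.23 (adjusted p = 0.288 in the same fit). In these 2 of the 7 genes both sh-ANP32B samples lay below both NC samples. RAP1A, HVCN1, NRROS and ARHGDIB are named here after their values were seen.

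Among receptors that trigger the oxidative burst, 10 of 12 were tested, 1 was higher (2.14% of all genes were) and none was lower. Their median log2 difference was 0.54, and 6 had an unadjusted p under 0.05 in limma's fit (23.8% of all genes did). The gene that rose was ITGB2, the beta chain of the leukocyte integrins, with 739.7 and 671.7 TPM in the NC samples against 1214 and 1600 TPM after knockdown. Its log2 difference was 0.98 (SE 0.164, adjusted p = 0.0419). This call was lost with median-of-ratios scaling (0.0504) and without the abundance trend (0.121), where 0 of all 16817 genes passed. The adjusted p over the alternatives with all samples ranged from 0.000216 to 0.121. With 1 sample left out the ITGB2 difference was 0.78 to 1.18. ITGAM, its partner in the complement receptor CR3, had a log2 difference of 0.97 with an adjusted p of 0.0551, and is named after its value was seen.

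No gene passed the threshold in the other 4 lists, by limma with the abundance trend. Without the trend 0 of all 16817 genes passed. The counts at an unadjusted p under 0.05 are set against the 23.8% of all genes. Of 20 kinases, lipid enzymes and exchange factors that act upstream of the oxidase, 19 were tested, with a median log2 difference of 0.13 and 6 genes at an unadjusted p under 0.05. Of 11 enzymes that supply NADPH or handle peroxide, 7 were tested, with a median of 0.27 and 4 at an unadjusted p under 0.05. Of 10 genes of other NADPH oxidases only NOXA1, an activator of other members of the family, could be tested, with a log2 difference of 0.86 and an adjusted p of 0.0901, and its unadjusted p was under 0.05. All 12 transcription factors known at oxidase genes were tested, with a median of 0.20 and 2 at an unadjusted p under 0.05.

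Over the 6 lists, 1 of 56 genes tested passed, ITGB2, with 3.32% of all genes passing, and the median log2 difference was 0.26. This count was 15 with the GC correction, where 16.6% of all genes passed (2557, against 559 in the main fit). The list count was 0 with median-of-ratios scaling, where 530 of all genes passed, so the number of calls in the lists depended on the scaling. With 1 sample left out, the spread is estimated from the group that keeps 2 samples. A change in the calls of such fits therefore cannot show that they rested on 1 library. The GC correction called 2 of the partner genes, 5 kinases and exchange factors, 3 receptors, 3 enzymes of NADPH and peroxide, 2 transcription factors and none of the other oxidases.

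**Figure D4:**
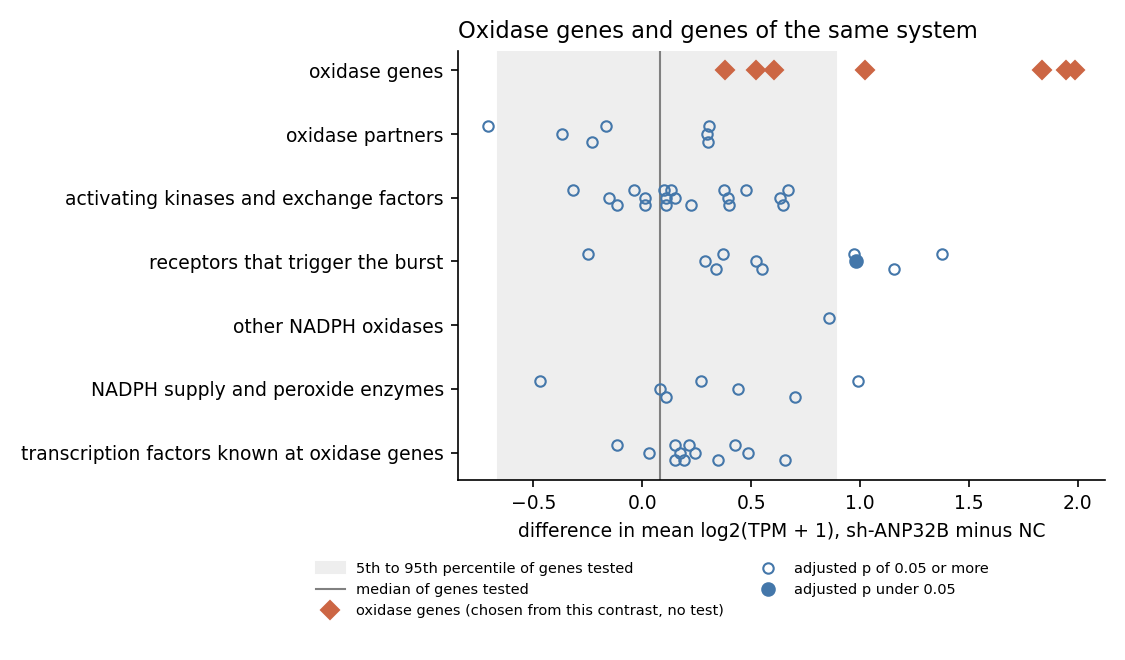
Difference in mean log2(TPM + 1), sh-ANP32B minus NC, for the 7 oxidase genes (diamonds, no test) and for the genes tested in 6 lists of the same system (circles, filled where the adjusted p was under 0.05). The grey band spans the 5th to 95th percentile of all genes tested (-0.66 to 0.89) and the line is their median of 0.08. Only ITGB2 is filled.

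SPI1, which encodes PU.1, the factor best known for driving oxidase genes in myeloid cells, was at 250.6 and 241 TPM in NC and at 300.7 and 363.6 TPM in sh-ANP32B. The groups did not overlap, but the log2 difference of 0.43 (SE 0.139) had an adjusted p of 0.131. The SPI1 difference was 0.56 without sh-ANP32B replicate 1 and 0.29 without sh-ANP32B replicate 2. It was 0.45 without NC replicate 1, 0.4 without NC replicate 2, and 0.17 with the GC correction and all samples. With other choices and all samples its adjusted p ranged from 0.113 to 0.255.

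The promoters of NCF1, CYBB and CYBA were searched for the PU.1 core GAGGAA, for the RUNX core TGTGGT and for the E-box CACGTG, on both strands of the 300 bases that run from 250 before to 50 after the RefSeq start (GRCh38.p14). The upstream bases nearest to the start, up to the earliest annotated one, are shown 5′ to 3′ along each gene to set the gene with the largest difference beside the cytochrome pair. Capitals mark GAGGAA read on the opposite strand.
NCF1, chr7:74773911-74774010, plus strand: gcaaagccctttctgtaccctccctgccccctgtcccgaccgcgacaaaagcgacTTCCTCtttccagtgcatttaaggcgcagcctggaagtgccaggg
CYBB, chrX:37779959-37780017, plus strand: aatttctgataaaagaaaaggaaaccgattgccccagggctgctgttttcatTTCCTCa
CYBA, chr16:88651084-88651153, minus strand: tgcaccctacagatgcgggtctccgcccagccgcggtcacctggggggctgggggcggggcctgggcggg

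GAGGAA occurred once in the NCF1 promoter, 45 to 40 bases before the RefSeq start, and once in the CYBB promoter, 48 to 43 bases before it. It was not in the CYBA window. Over 35116 promoters of the same length 27.9% held GAGGAA. The composite motif of ETS and IRF factors was found, of these 3 windows, in that of CYBB, 54 to 45 bases before the start and overlapping GAGGAA. The promoter of CYBC1 also held it, as did 2.82% of all promoters. TGTGGT (13.1% of all promoters) and CACGTG (7.26%) were in none of these windows. GC was 57.3% in the NCF1 window, 72.7% in that of CYBA and 37.7% in that of CYBB. These are matches of letters in the reference and carry no measurement from the samples. Whether GAGGAA has a part in the differences of NCF1 or CYBB was not tested.

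Genes next to the 7 were examined because position had played no part in their choice. Of 44 genes tested within 200 kb, 2 were higher and none was lower (4.55%, against 2.14% of all genes higher), with a median log2 difference of 0.11 against 0.08 for all genes. Around NCF1 and its copies none of 21 neighbours passed in limma's fit, where 4 had an unadjusted p under 0.05 (23.8% of all genes did), and their median was -0.14. The 4 were GTF2I (0.46), its copies GTF2IP4 (0.44) and GTF2IP1 (0.46), and PMS2P13 (1.17, at 0.94 to 4.49 TPM). GTF2I and its copies can share reads, so they are not separate observations. The nearest neighbours of NCF1 were GTF2IRD2, 6.84 kb away with a log2 difference of -0.05, and GTF2I, 13.3 kb away with 0.46 (adjusted p = 0.178), named for being nearest. Both of these genes also have copies in the duplicated blocks. Their differences were far smaller than the 1.99 of NCF1.

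Beside NCF4, CSF2RB, which encodes the common beta chain of the GM-CSF and IL-3 receptors, rose. It lies 35.6 kb away and was at 10.1 and 12.2 TPM in NC and at 25.3 and 25.7 TPM in sh-ANP32B, a log2 difference of 1.13 (SE 0.180, adjusted p = 0.0392). The call was lost without the abundance trend (0.114), where 0 of all 16817 genes passed. The adjusted p ranged from 0.00098 to 0.114 over the alternatives with all samples. With 1 sample left out the CSF2RB difference was 1.00 to 1.26. The difference with all samples was close in size to that of NCF4. Of the 7 genes tested between the starts of NCF4 and RAC2, CSF2RB was the only one to pass. A Y_RNA gene had a log2 difference of 1.09 (adjusted p = 0.0809) and C1QTNF6 one of 0.80 (adjusted p = 0.160). Both were low, at 1.16 to 3.85 TPM and at 2.27 to 6.46 TPM. The differences of MPST (0.28), TST (0.12), KCTD17 (0.02) and IL2RB were smaller. CYTH4, beyond RAC2, had 0.76 (adjusted p = 0.0695). These genes are named for their position.

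**Figure D5:**
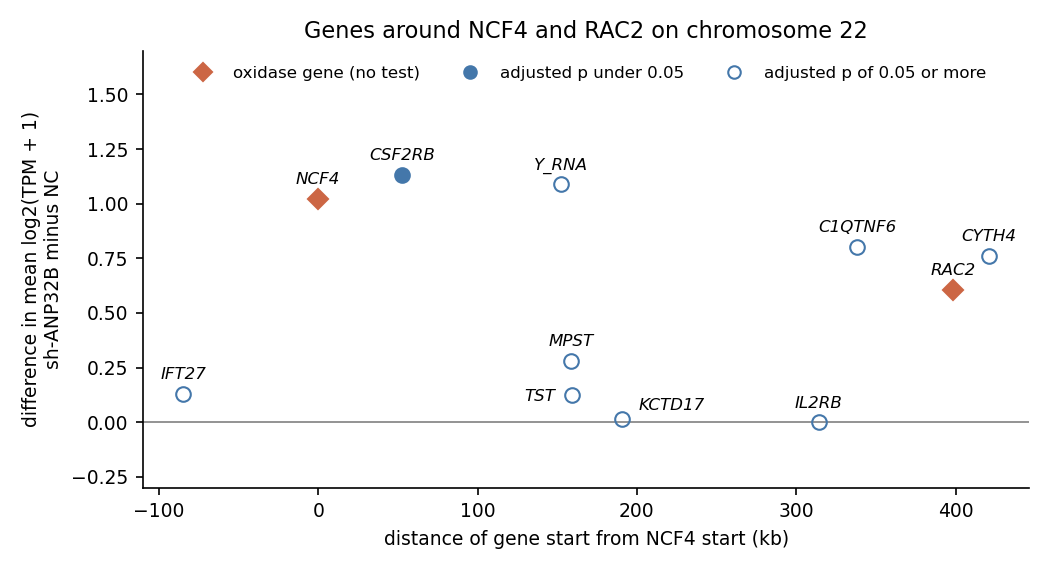
Difference in mean log2(TPM + 1), sh-ANP32B minus NC, against the distance (kb) of each gene's start from the NCF4 start, for the genes tested around NCF4 and RAC2. Diamonds are oxidase genes, with no test, and filled circles had an adjusted p under 0.05. NCF4 (1.02) and CSF2RB (1.13) stand side by side and RAC2 (0.61) lies 398.6 kb away. Between them are genes of both large and near-0 differences, the large ones of Y_RNA and C1QTNF6 at low TPM.

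Beside CYBA, MVD, which encodes mevalonate diphosphate decarboxylase of cholesterol synthesis, rose. It lies 0.852 kb from CYBA and was at 67.2 and 57.5 TPM in NC and at 125.7 and 183.2 TPM in sh-ANP32B, a log2 difference of 1.27 (SE 0.202, adjusted p = 0.0392). The call was lost without the abundance trend (0.116), where 0 of all 16817 genes passed. The adjusted p ranged from 1.43e-06 to 0.116 over the alternatives with all samples. CYBA, for comparison, had a log2 difference of 0.52, and MVD like CYBA was highest in sh-ANP32B replicate 2. Of 12 genes tested near CYBA, MVD was the only one to pass. In the same fit 5 of them had an unadjusted p under 0.05 (23.8% of all genes did). Log2 differences of the 12 ran from -0.61 (CDT1) to 1.27 (MVD), with a median of 0.29. None of the 2 genes tested near CYBB and none of the 5 near RAC2 passed in limma's fit. At an unadjusted p under 0.05 there were 1 and 2 genes.

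The genes whose 4 values ran closest to those of NCF1 were found among 9736 genes with a mean of at least 10 TPM, by the root mean square difference of their centred log2(TPM + 1) values. TYROBP, which encodes the adaptor DAP12, was nearest at 0.0595, with 65.4 and 55.4 TPM in the NC samples against 210.6 and 270.1 TPM after knockdown. FCGR2B (0.110), a low-affinity Fc receptor with a near-identical relative, and ITGAX (0.120), the integrin CD11c, came next. For CYBB the nearest were MFSD13A (0.0107), IRF2 (0.0139) and CCDC57 (0.0194), none of which was among the nearest of NCF1. This is a ranking over 4 samples and describes their pattern only.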

How the data were processed

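The authors deposited 1 table of TPM values for the Kasumi-1 samples (2 NC, 2 sh-ANP32B). The submitters' processing notes name HISAT2 2.0.5 and hg38. The program that made the TPM values, the annotation, the read length and the use of strand are not given in the sources used here. Columns of TPM summed to 997812 to 998314 per sample, depth is unknown, and count-based tests were not run. Identifiers were matched to GENCODE 44 (16986 of 18567). Genes reaching 1 TPM in 2 or more samples were fitted on log2(TPM + 1) with limma 3.58.1 in R 4.3.3 (abundance trend, no covariates), with Benjamini-Hochberg adjustment over 16817 genes. An exact two-sided permutation test of 2 against 2 samples cannot go below 0.333 and was not used. The fit was tested on simulated data. Named genes were the 7 oxidase genes, RAC1, CYBC1 and SPI1, genes of the 6 lists and neighbours within 200 kb with an adjusted p under 0.05, and the 3 genes most like NCF1 and CYBB. Others are named after their values were seen. The 7 genes and the lists were chosen with earlier results of these data known, and some of their items are not reported here. Promoters are from RefSeq (GRCh38.p14). Alternatives were a pseudocount of 0.1, other filters, median-of-ratios scaling, omission of mitochondrial genes, a GC loess correction, a replicate block, no trend, and each sample left out.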

Additional observations from a re-analysis of the deposited data

How the results depend on the processing

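Of the differences recomputed under the alternatives (the 7 oxidase genes, the summed copies, RAC1, CYBC1, SPI1, ITGB2, CSF2RB and MVD), none changed sign. With median-of-ratios scaling the log2 differences of NCF1B and NCF1C were 1.74 and 1.85. With the GC correction, which covered 15427 genes, they were 1.61 and 1.72, that of NCF1 was 1.75, that of RAC2 0.43 and that of the summed copies 1.69. Leaving out each sample gave 1.88 to 2.10 for NCF1, 1.76 to 1.91 for NCF1B, 1.88 to 2.01 for NCF1C, 0.81 to 1.23 for NCF4, 0.11 to 0.94 for CYBA, 0.29 to 0.47 for CYBB, 0.50 to 0.71 for RAC2 and 1.86 to 2.02 for the sum. Of all genes, 559 passed (360 higher, 199 lower), against 530 with median-of-ratios scaling (236 higher, 294 lower) and 2557 with the GC correction (1222 higher, 1335 lower). The balance of higher and lower turned in both. The count was 0 without the abundance trend (3701 at an unadjusted p under 0.05) and 273 to 4079 with 1 sample left out, the lowest without NC replicate 2 and the highest without sh-ANP32B replicate 1. Median-of-ratios scaling moved the median of all genes from 0.08 to 0.00. In the lists 1 gene passed, against 2 with at least 1 TPM in every sample, 0 with median-of-ratios scaling, 15 with the GC correction, 0 without the trend and 0 to 25 with 1 sample left out. With a sample left out, the lone sample of its group is assumed to vary like the other group. The groups share replicate numbers only: deviations of same-numbered samples correlated at -0.0925, nothing in the labels pairs them, and with the replicate number as a block 1473 genes passed in all and 10 in the lists. The share of NCF1 windows found in a copy was 14.4% at 100 bases, 50.5% at 50 bases, 2.33% at 150 bases and, in a search of annotated transcripts chosen after seeing the data, 49.3%. With 2 samples a group and unknown depth, the precision of small differences such as that of CYBB is unknown.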
